A study of Mus musculus with 20 samples.

Results

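The Ifit genes and the ISG15 system were followed as 9 genes in BV-2 microglia, a cell line established from mouse brain microglia: Ifit1, Ifit2, Ifit3, Ifit3b, Isg15, Usp18, Herc6, Uba7 and Ube2l6. They were taken by symbol, under a rule that sets no threshold on expression, out of 55487 genes in the count table, and all 9 were among the 12799 genes abundant enough to be tested, Ifit1, Ifit3 and Ifit3b only through their level in treated cultures. RNA was sequenced from 20 BV-2 cultures in 4 groups of 5: young cells without treatment, aged cells without treatment, and young and aged cells exposed to lipopolysaccharide (LPS), a component of bacterial outer membranes, at 100 ng/ml for 6 hours. Young cells were control cultures at low passage and aged cells came from long-term cultivation of the same line, so "aged" describes time in culture and not the age of an animal. The labels give every group as wild type (WT), and all groups share the immortalised background of the line. The sources used here do not say how many separate long-term cultures the 5 aged replicates came from, so p-values measure the spread between these cultures only, which may be technical. Library totals ranged from 11371508 to 16829292 counts, at which 3 counts, taken as the floor of detection, equalled 0.165 to 0.296 CPM, counts scaled to a common library size.

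The cultures expressed macrophage and microglial genes. Of 13 markers, Cd68 was the most abundant, and Csf1r, Spi1, Adgre1 and Tyrobp were counted in all 20 libraries. The homeostatic markers Cx3cr1 and P2ry12 were low in untreated cultures, at 0.259 to 1.73 and 0.414 to 1.87 CPM, and were at 0 in 1 and 3 libraries, all of them from LPS cultures. Map2, Snap25 and Syt1 of neurons, Aqp4 and Aldh1l1 of astrocytes, Mog of oligodendrocytes, Cldn5 of endothelium, Dcn and Pdgfra of fibroblasts and Cd3e of T cells had 0 counts in all 20 libraries.

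Interferon-stimulated genes are switched on when type I interferon binds its receptor and transcription factors that include STAT2 and IRF9 assemble on a DNA motif, the interferon-stimulated response element (ISRE), and in macrophages and microglia LPS reaches the same genes through TLR4 and the interferon-beta it induces. The Ifit proteins bind RNA and each other and hold back the translation of viral RNA. ISG15 is a ubiquitin-like protein that is attached to other proteins by a cascade of its own: UBA7 activates it, UBE2L6 carries it, HERC6 is the main ligase in the mouse, and USP18 removes it again and also restrains signalling at the interferon receptor.

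The 4 Ifit genes lay in 1 cluster on the forward strand of chromosome 19 (GRCm38), with Ifit2 (ENSMUSG00000045932) at chr19:34550694-34576419, Ifit3 (ENSMUSG00000074896) at chr19:34583531-34588731, Ifit3b (ENSMUSG00000062488) at chr19:34607970-34613401 and Ifit1 (ENSMUSG00000034459) at chr19:34640871-34650009. The genes of the ISG15 system were spread over 4 chromosomes: Ube2l6 (ENSMUSG00000027078) at chr2:84798828-84810335, Isg15 (ENSMUSG00000035692) on the reverse strand at chr4:156199424-156200818, Herc6 (ENSMUSG00000029798) at chr6:57581000-57664632, Usp18 (ENSMUSG00000030107) at chr6:121245906-121270917 and Uba7 (ENSMUSG00000032596) at chr9:107975505-107984060. Ifit3 and Ifit3b are near-identical copies, with 1663 of 1697 aligned transcript bases (98.0%) the same, so how reads were divided between them is uncertain. Exons of Usp18 shared 124 bases with the antisense gene Gm44148, those of Herc6 shared 1269 bases with Gm45193 and those of Uba7 shared 233 bases with Gm20661, both on the same strand, and counts of these 3 genes could include or lack reads from the shared bases.

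The promoters of Ifit1, Ifit3, Ifit3b and Isg15 are shown because they held the core of the ISRE, a pair of GAAA separated by any 2 bases or its reverse complement, a pair of TTTC with the same gap, in the window from 250 bases before to 50 bases after the RefSeq start (GRCm38.p6). A window was found for 8 of the 9 genes and not for Usp18. The core was searched on both strands and was present in 4 of these 8 genes and in 1131 of 32851 windows of all genes (3.44%). Matches are in capitals, each stretch reads 5′ to 3′ on the strand of its gene with 20 bases on either side, and the 3 matches of Isg15 overlap one another.
Ifit1, chr19:34640765-34640833, forward strand: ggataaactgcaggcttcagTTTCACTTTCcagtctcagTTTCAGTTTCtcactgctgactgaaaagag
Ifit3, chr19:34583353-34583436, forward strand: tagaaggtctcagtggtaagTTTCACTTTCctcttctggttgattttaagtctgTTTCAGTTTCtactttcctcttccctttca
Ifit3b, chr19:34607749-34607832, forward strand: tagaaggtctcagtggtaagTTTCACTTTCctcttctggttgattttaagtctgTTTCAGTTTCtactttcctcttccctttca
Isg15, chr4:156200855-156200916, reverse strand: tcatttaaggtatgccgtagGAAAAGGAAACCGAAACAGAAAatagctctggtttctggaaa

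All printed stretches lie before the RefSeq start of their gene, outside its exons. The Ifit3 and Ifit3b stretches were the same in 84 of 84 bases, and Ifit1, Ifit3 and Ifit3b carried the same pair of 10-base matches, at the same spacing in Ifit3 and Ifit3b and a shorter one in Ifit1. The Ifit1 stretch also lies before the start of Ifit1bl2, a related gene on the reverse strand whose RefSeq start is 146 bases from that of Ifit1. Within the windows, the matches began 78 bases before the start in Isg15, 104 in Ifit1, 156 in Ifit3 and 188 in Ifit3b, counted at the match farthest from the start. The windows of Ifit2, Herc6, Uba7 and Ube2l6 did not contain these letters. An NF-kappaB motif was matched in the Ifit2 window and in no other of the 8 genes, against 8.46% of the windows of all genes. The map of the matches by distance from the start shows the same positions.

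**Figure D1:**
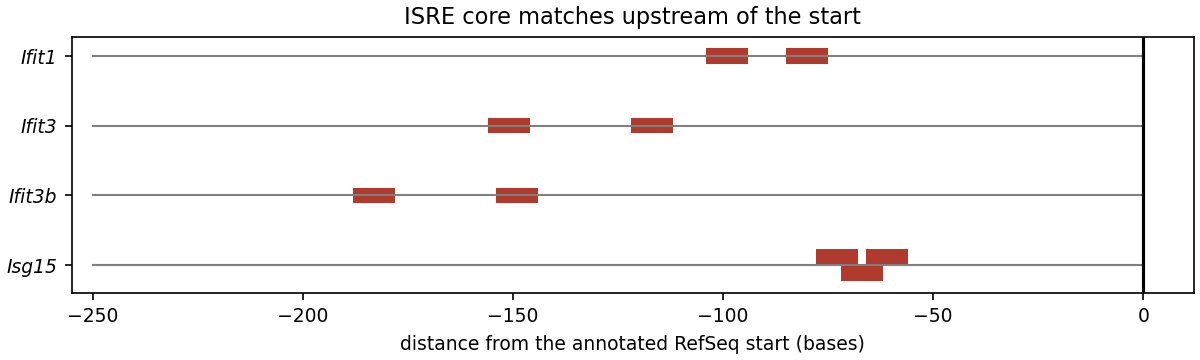
Positions of matches to the ISRE core upstream of Ifit1, Ifit3, Ifit3b and Isg15, as distance from the RefSeq start in bases; each block is 1 match, and the vertical line is the start. Ifit1, Ifit3 and Ifit3b carry separate matches, and the 3 matches of Isg15 overlap, drawn above and below the line.

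Without LPS the order of the genes per transcript length, in TPM (transcript counts scaled by length and library size, mean ± SD, n = 5), was led by Ube2l6, at 42.9 ± 5.99 TPM in young and 42.1 ± 6.47 TPM in aged cultures. Ifit2 came next, at 13.1 ± 2.32 and 9.13 ± 0.394 TPM. Isg15 stood at 8.5 ± 5.36 TPM in young and 1.23 ± 0.585 TPM in aged cultures. The transcript of the carrier enzyme was thus more abundant at rest than that of the modifier, and protein was not measured here. The library ranges of Ube2l6 and Ifit2 were apart in both ages. In young cultures the ranges of Uba7, Ifit1, Usp18, Ifit3 and Herc6 overlapped from each to the next, between a mean of 4.10 TPM for Uba7 and 1.43 TPM for Herc6. Ifit3b was lowest, at 0.352 ± 0.375 TPM in young cultures and 0 counts in all 5 aged ones.

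Under LPS the order changed, and Isg15 led. Its level was 906 ± 161 TPM in young and 370 ± 108 TPM in aged cultures. Ifit2 followed, at 497 ± 101 and 148 ± 74.2 TPM, with library ranges apart from those of Isg15 in young cultures and overlapping them in aged ones. In young cultures Ifit1 (283 TPM), Ube2l6 (237 TPM), Ifit3 (237 TPM) and Usp18 (141 TPM) overlapped from each to the next. The ligase Herc6 was the lowest of the 9, at 17.8 ± 3.30 TPM in young and 5.98 ± 2.26 TPM in aged cultures, in the latter overlapping Ifit3b (13.2 TPM). The plot of levels per transcript length shows Isg15 moving from below Ube2l6 to the top.

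**Figure D2:**
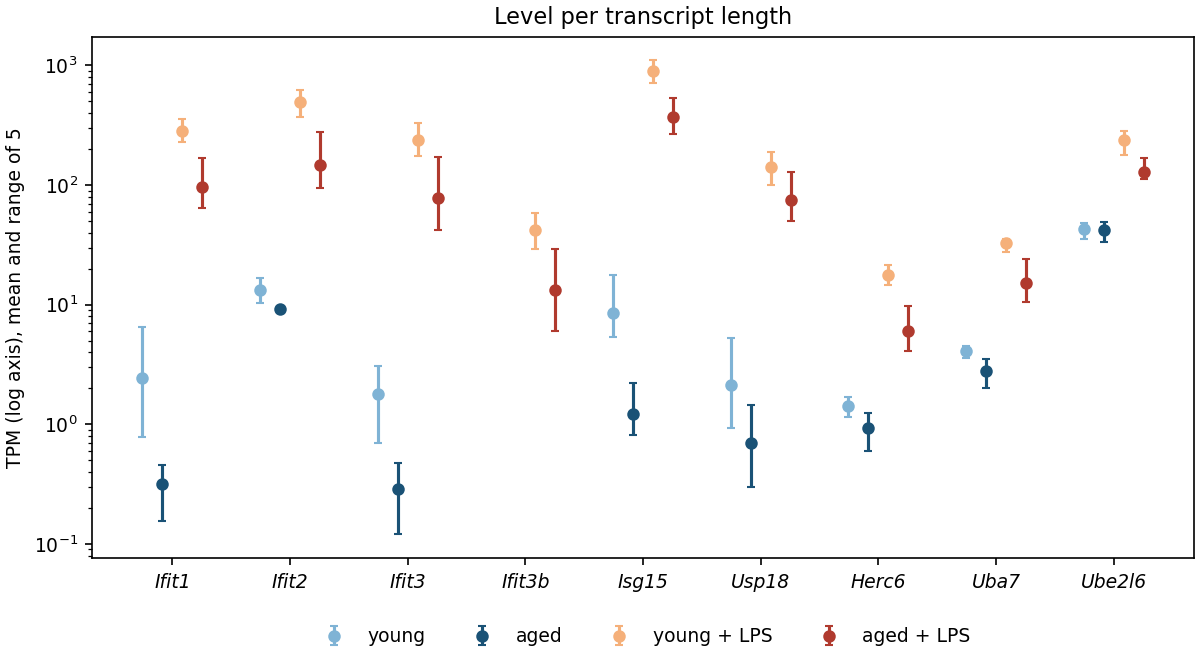
Level per transcript length of each gene in the 4 groups, in TPM on a log axis; points are means and bars run from the lowest to the highest of 5 cultures, and groups with a library at 0 are left out, which removes both untreated groups of Ifit3b. Ube2l6 is highest without LPS and Isg15 is highest with LPS, at 906 TPM in young and 370 TPM in aged cultures.

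Comparing aged with young cultures at rest asks whether long cultivation alone shifts these genes. Isg15 was lower in aged cultures, as was Ifit1 in the edgeR fit of all 20 cultures, though Ifit1 was too low to be tested from untreated cultures alone. No gene of the 9 was called higher. Isg15 had 3.79, 1.15, 1.69, 1.12 and 1.13 CPM in young cultures 1 to 5 and 0.453, 0.202, 0.171, 0.165 and 0.266 CPM in aged cultures. Every young culture lay above every aged one, with young culture 1 well above the other four and the aged cultures at 3 to 7 counts. The log2 fold change was −2.79 ± 0.61 (SE; edgeR adjusted p = 0.00488). Ifit1, which recognises RNA that lacks the cap methylation of host mRNA, had 70, 9, 26, 9 and 21 counts in the young and 5, 4, 2, 2 and 5 counts in the aged cultures. The groups did not overlap, young culture 1 again stood highest, and the log2 fold change was −2.94 ± 0.85 (edgeR adjusted p = 0.0271).

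Thus 2 of 9 genes were called lower, where 7.81% of all genes tested were called lower and 11.5% were called in either direction. The groups did not overlap for 5 genes, all lower in aged cultures (Ifit1, Ifit2, Ifit3, Isg15 and Uba7), where the share of all genes was 6.63%. As Ifit1, Ifit3 and Ifit3b passed the filter on low counts only through the LPS cultures, nothing is read from these counts against the shares of all genes. Among the other 6 genes, 1 was called lower (Isg15) and 3 did not overlap (Isg15, Ifit2 and Uba7). The fitted log2 fold change was negative for all 9. Among these 6 genes it ran from −2.79 for Isg15 to −0.05 for Ube2l6. Isg15, at 3 to 7 counts, and Usp18, at 4 to 17, were low in aged untreated cultures. At rest they reached the level of the filter as a group only in young cultures, so they are not read against all genes either. Over Ifit2, Herc6, Uba7 and Ube2l6 the fold change ran from −0.66 to −0.05, beside a median of −0.014 over all genes tested. The median over the 8 genes other than Ifit3b was −1.14, the same with Ifit3 set at the floor in aged cultures. That median includes Ifit1 and Ifit3 and is not read against all genes.

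The other Ifit genes did not pass the edgeR test at rest. Ifit2, which is known to promote cell death and binds AU-rich RNA, had levels of 18.6, 13.7, 13.7, 13.6 and 11.5 CPM in the young cultures and of 9.18, 10.1, 9.65, 9.34 and 10.2 CPM in the aged ones. The aged cultures were closely grouped and all below the young ones, but the log2 fold change of −0.55 ± 0.27 gave an edgeR adjusted p of 0.204. With only the untreated cultures in the fit, Ifit2 passed, at −0.54 (edgeR adjusted p = 0.00583). Ifit3, whose human counterpart stabilises IFIT1, had 22, 7, 23, 5 and 9 counts in young and 2, 3, 1, 4 and 1 counts in aged cultures (edgeR adjusted p = 0.194). Its groups were apart by a single count, and as its mean level in the aged group, 0.135 CPM, was under the mean floor there, 0.186 CPM, no fold change against that group is given. Ifit3b had 6, 0, 7, 1 and 1 counts in young and 0 counts in all aged cultures, which is at or near the floor of 3 counts per library in both groups, and no fold change is given (edgeR adjusted p = 0.245). DESeq2 called Ifit3 and Ifit3b lower and did not call Ifit2.

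None of the enzymes of the ISG15 cascade passed the edgeR test at rest, while DESeq2 called Uba7, Herc6 and Usp18 lower (DESeq2 adjusted p = 0.0268, 0.0423 and 0.0143). The activating enzyme Uba7 had levels of 8.55, 7.73, 7.97, 6.73 and 6.72 CPM in the young cultures and of 6.40, 3.57, 5.37, 4.94 and 5.19 CPM in the aged ones, without overlap (log2 fold change −0.56 ± 0.20, edgeR adjusted p = 0.0781; with the replicate number as a block −0.57, edgeR adjusted p = 0.0320, which passes). The log2 difference was −0.66 ± 0.27 for Herc6 (edgeR adjusted p = 0.128) and −1.62 ± 0.70 for the deconjugase Usp18 (edgeR adjusted p = 0.147), with overlapping groups. Usp18 counts in young cultures were 60, 15, 22, 16 and 11, and in aged cultures 17, 4, 4, 7 and 10. Young culture 1 was far above the rest for this gene as well, and without it the log2 difference was −0.97 (edgeR adjusted p = 0.473). Ube2l6 stood at 23.6 ± 3.51 CPM in young and 22.7 ± 3.67 CPM in aged cultures, a log2 difference of −0.05 with a 95% interval from −0.36 to 0.25.

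The calls at rest were few-count calls, and the call of Ifit1 and the number of genes called depended on single cultures. Without young untreated culture 1 the fold change of Ifit1 was −2.18 on the log2 scale (edgeR adjusted p = 0.116) and 1 gene was called lower (6.08% of all genes). Without aged LPS culture 3, which is in neither group compared, 6 genes were called lower (8.77% of all genes). With only the untreated cultures in the edgeR fit, 6 of the 9 genes could be tested, without Ifit1, Ifit3 and Ifit3b. The 4 called lower were Ifit2, Isg15, Herc6 and Uba7, where 8.5% of all genes were called lower. Isg15 could be tested there only because of its level in young cultures. DESeq2 called 7 of the 9 lower, all but Ifit2 and Ube2l6, where it called 8.15% of all genes lower. Isg15 kept its call with each of the 20 libraries left out (edgeR adjusted p 0.00166 to 0.0172).

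**Figure D3:**
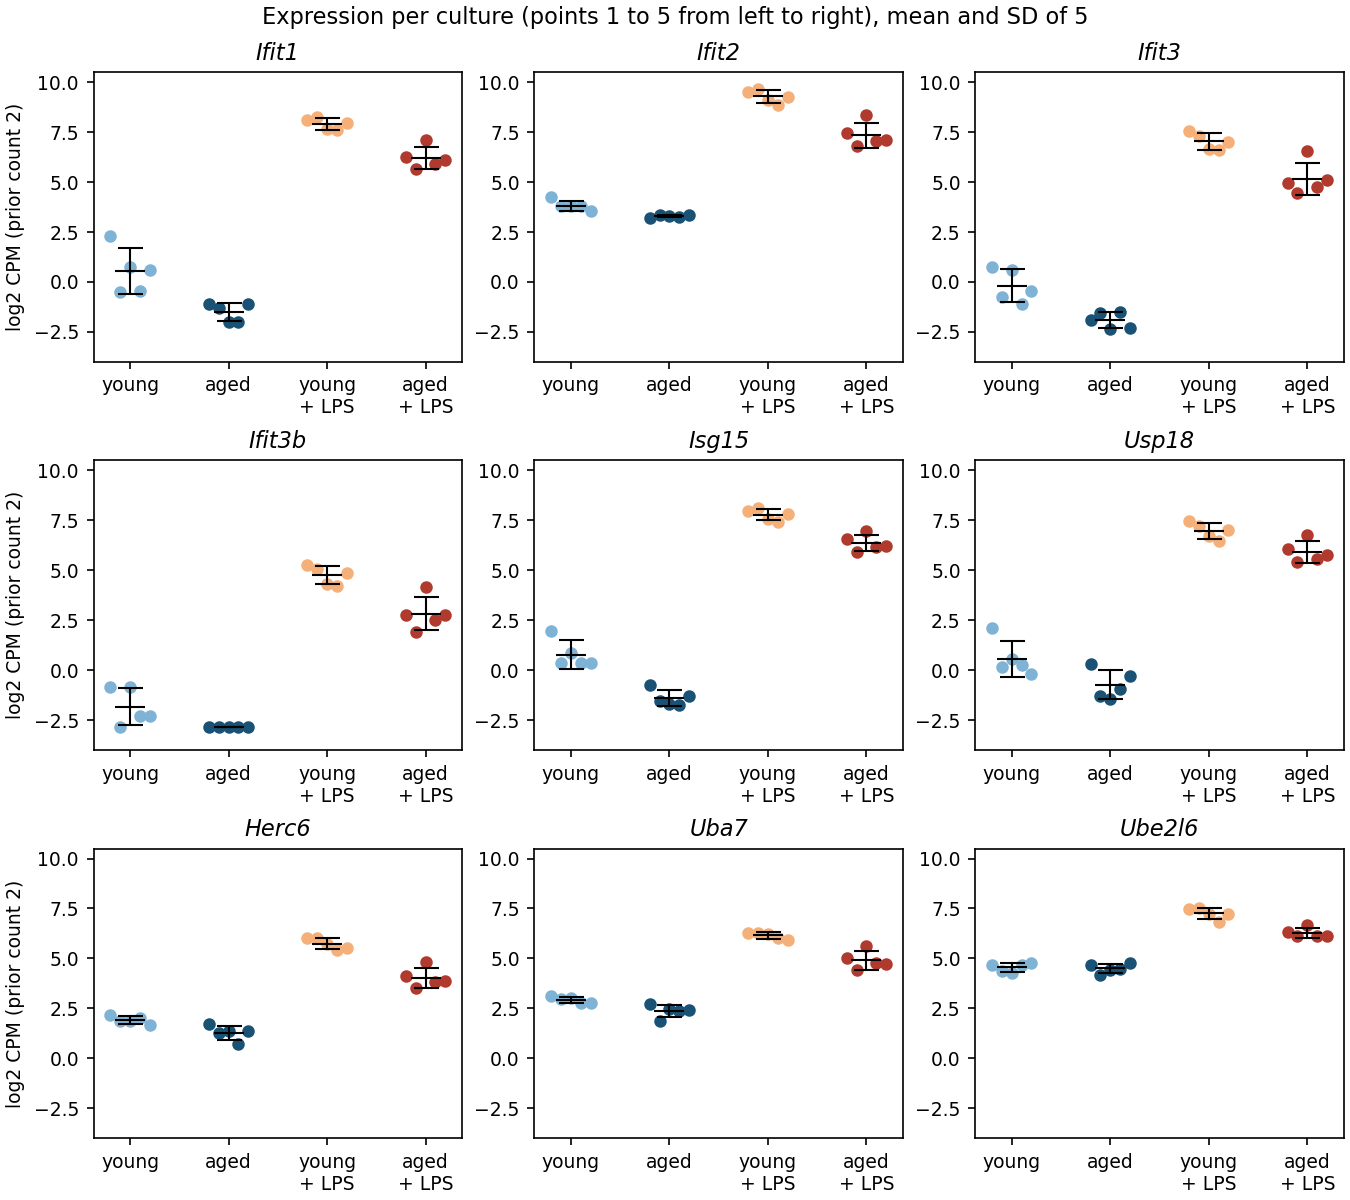
Level of each of the 9 genes in the 20 cultures, as log2 CPM with a prior count of 2; each point is 1 culture, in the order of replicates 1 to 5 from left to right, and bars are the group mean and SD (n = 5). All LPS cultures lie above all untreated cultures of the same age, and aged LPS cultures lie below young LPS cultures for every gene but Usp18, where aged culture 3 reaches into the young range.

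LPS raised all 9 genes in young cultures, where 31.2% of all genes tested were called higher, and no treated culture overlapped an untreated one for any of them (23.9% of all genes). For Ifit1, Ifit3 and Ifit3b, which were tested only because of their level under LPS, the filter itself favours a rise, in both ages. The median log2 fold change was 6.30, or 5.89 without Ifit3b. Both medians include genes that the filter favours, and neither is read against all genes. Among the other genes the rise ran from 2.72 for Ube2l6 to 6.98 for Isg15, beside a median of −0.011 over all genes. Isg15 rose from the values above to 254, 274, 192, 170 and 228 CPM, which is 6.98 ± 0.26 on the log2 scale (edgeR adjusted p = 3.87e-16). Among the Ifit genes, Ifit3 rose by 7.28 ± 0.44, Ifit1 by 7.12 ± 0.35 and Ifit2 by 5.49 ± 0.26 on the log2 scale. Ifit3b, with a mean at rest under the floor, went from 15 counts over the 5 untreated cultures to 387, 403, 291, 249 and 387 counts. Ifit2, the most expressed Ifit gene at rest, had the smallest ratio of Ifit1, Ifit2 and Ifit3 and the highest level reached, at 742, 805, 554, 462 and 624 CPM. The deconjugase Usp18 rose by 6.30 ± 0.35 and the enzymes of the cascade by less, Herc6 by 3.88 ± 0.21, Uba7 by 3.24 ± 0.18 and Ube2l6 by 2.72 ± 0.14. Without young untreated culture 1 the rise was 7.87 for Ifit1 and 6.95 for Usp18 on the log2 scale.

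In aged cultures LPS also raised all 9 genes (27.5% of all genes called higher), again without overlap (21% of all genes). Isg15 reached 95.7, 60.5, 124, 72.0 and 73.6 CPM, which is a rise of 8.38 ± 0.34 on the log2 scale (edgeR adjusted p = 4.24e-15). All 5 aged treated cultures were below the lowest young treated culture. Ifit1 rose by 8.41 ± 0.47, Usp18 by 6.92 ± 0.42 and Ifit2 by 4.19 ± 0.26 on the log2 scale. Ifit3, under the floor at rest with 11 counts over the 5 cultures, reached 440, 266, 1343, 344 and 477 counts. Ifit3b went from 0 counts in every culture to 93, 44, 260, 71 and 93 counts, at least 43.3-fold higher against the floor of 3 counts per library. Herc6 rose by 2.87 ± 0.23, Uba7 by 2.61 ± 0.18 and Ube2l6 by 1.78 ± 0.14.

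Comparing aged with young cultures under LPS asks how much of these transcripts the aged cells hold once stimulated. All 9 genes were lower in aged cultures, where 15% of all genes tested were called lower, and 8 of 9 did not overlap, the exception being Usp18 (8.16% of all genes). The median log2 fold change was −1.64, beside 0.0085 over all genes. In a bulk culture, fewer responding cells and less RNA per cell cannot be told apart.

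Among the Ifit genes, Ifit2 had 173, 111, 332, 131 and 136 CPM in aged cultures under LPS against 462 to 805 CPM in young ones. Aged culture 3 stood well above the other aged cultures and still below every young one. The log2 fold change was −1.85 ± 0.21 (edgeR adjusted p = 1.48e-06). Ifit1 had 2807, 3731, 2887, 2577 and 3388 counts in young and 1098, 619, 1981, 764 and 941 counts in aged cultures (log2 fold change −1.64 ± 0.24, edgeR adjusted p = 1.67e-05). The copies Ifit3 and Ifit3b differed by −1.70 ± 0.28 and −1.76 ± 0.32. Their aged culture 3, at 92.6 and 17.9 CPM, lay just below the lowest young culture, at 96.8 and 18.6 CPM, and the other aged cultures reached at most 34.5 and 6.73 CPM. Without all cultures of replicate number 3 the log2 fold changes were −2.33 and −2.39.

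The ISG15 system was lower at every step. Isg15 differed by −1.39 ± 0.17 (edgeR adjusted p = 3.49e-06). The ligase Herc6 had levels of 65.0, 65.0, 52.1, 43.0 and 45.2 CPM in the young cultures and of 17.1, 11.5, 28.0, 13.8 and 14.4 CPM in aged cultures, the largest estimate of the cascade at −1.66 ± 0.18 (edgeR adjusted p = 6.66e-07). Uba7 differed by −1.19 ± 0.15 and Ube2l6 by −0.99 ± 0.13 on the log2 scale. Usp18 had levels of 174, 147, 105, 87.3 and 128 CPM in the young cultures and of 66.3, 42.1, 109, 46.5 and 54.3 CPM in aged cultures. Aged culture 3 lay above young cultures 3 and 4, and the other aged cultures lay below all young ones. The log2 fold change of Usp18 was −1.0 ± 0.24 (edgeR adjusted p = 0.00255), and DESeq2 did not call it (adjusted p = 0.0660).

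**Figure D4:**
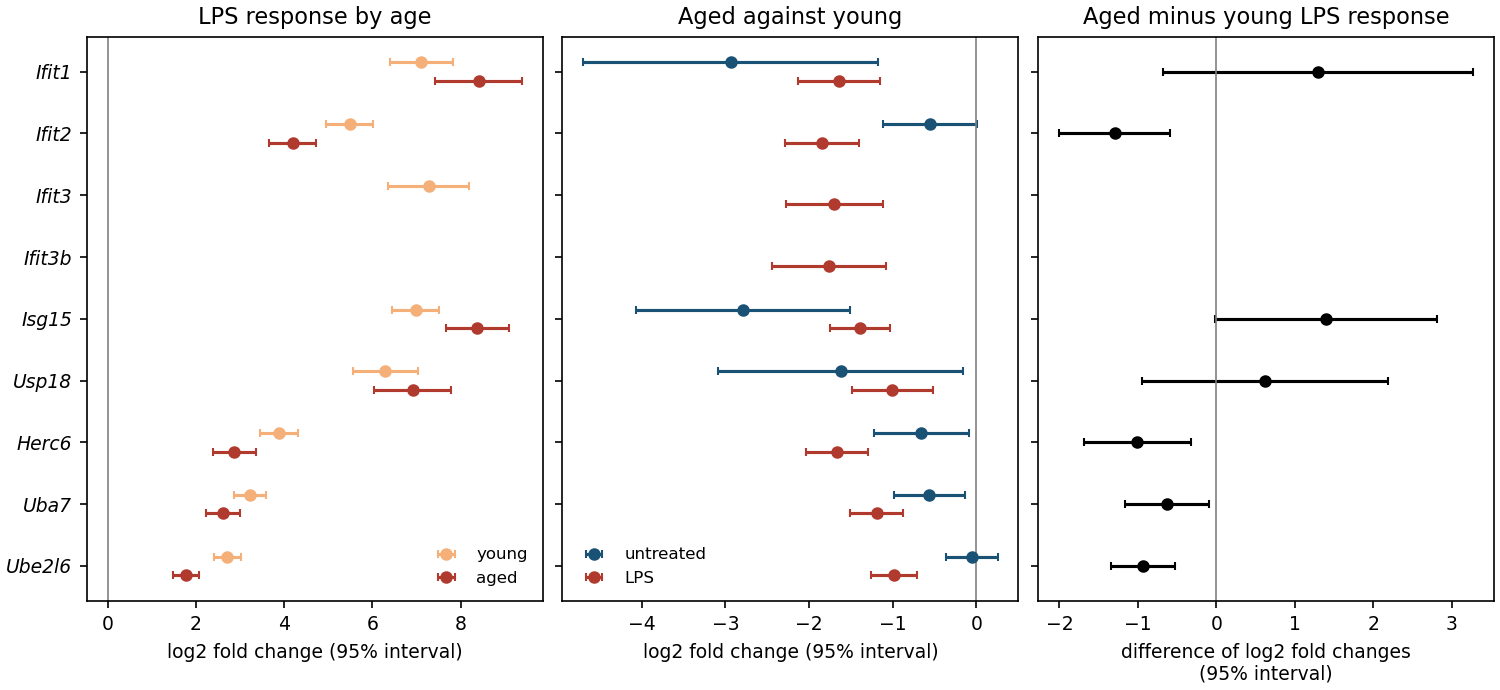
Log2 fold changes of the 9 genes in the 5 comparisons with 95% intervals from edgeR, in panels for the LPS responses, for aged against young cultures and for the difference of the responses; Ifit3 and Ifit3b are left out where an untreated group with a mean under the floor enters, which is the aged group for Ifit3 and both ages for Ifit3b. All LPS changes are positive, all differences between aged and young cultures under LPS are negative, and the differences of the LPS responses lie on both sides of 0.

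Whether the LPS response itself differed with age depends on the scale, and the test here is of the difference of the log2 responses (the interaction). Ifit2 and Ube2l6 responded less in aged cultures, by −1.30 ± 0.34 (edgeR adjusted p = 0.0246) and −0.93 ± 0.20 (edgeR adjusted p = 0.00567) on the log2 scale. In ratios of mean CPM, LPS raised Ifit2 44.9-fold in young and 18.2-fold in aged cultures, and Ube2l6 6.57-fold and 3.44-fold. These 2 of 9 genes compare with 2.27% of all genes called lower and 6.39% called in either direction. Both had their levels at rest well above the floor in both ages.

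Herc6 differed by −1.01 ± 0.33 without passing the test (edgeR adjusted p = 0.0751), and passed with the replicate number as a block (−1.02, edgeR adjusted p = 0.0378), without a filter on low counts (−1.0, edgeR adjusted p = 0.0319) and in DESeq2 (−1.03, DESeq2 adjusted p = 0.0110). Uba7 differed by −0.63 ± 0.26 (edgeR adjusted p = 0.165). Isg15, Ifit1 and Usp18 had estimates of the opposite sign, 1.40 ± 0.68, 1.30 ± 0.95 and 0.62 ± 0.75, none of which passed (edgeR adjusted p 0.263 to 0.736). The 95% interval for Isg15 ran from −0.01 to 2.81 and that for Usp18 from −0.95 to 2.19, so an equal ratio in both ages lay within both intervals, and for Usp18 a smaller and a larger one as well. Without young untreated culture 1 the estimate was 0.54 for Ifit1 and −0.033 for Usp18. The resting counts of Isg15 and Ifit1 in aged cultures were 2 to 7 per library, which limits the precision of their ratios, and the estimates for Ifit3 and Ifit3b, whose aged resting level was under the floor, did not pass (edgeR adjusted p = 0.802 and 0.597) and are not read as differences.

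On the linear scale every gene gained less in aged cultures. The rise in mean CPM was 85 in aged and 222 in young cultures for Isg15, and 167 and 623 for Ifit2. As a share of the young rise, the aged rise ran from 26.8% for Ifit2 through 38.2% for Isg15 to 49.9% for Usp18. No test was made on this scale.

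In the difference of the log2 responses, the call of Ifit2 and the number of genes called also depended on single cultures. Without aged LPS culture 3, Herc6 (−1.26, edgeR adjusted p = 0.00257) and Uba7 (−0.86, edgeR adjusted p = 0.00364) were called as well. Without young LPS culture 2, Ifit2 was not called (−1.20, edgeR adjusted p = 0.0522). Ifit2 also lost its call without all cultures of replicate number 1, 2, 4 or 5, at log2 differences of −1.35, −1.04, −1.30 and −1.14 (edgeR adjusted p = 0.0644, 0.195, 0.0663 and 0.146), and kept it without number 3. Ube2l6 kept its call in each of these fits, with a highest edgeR adjusted p of 0.0497.

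The 9 genes varied together from culture to culture. After removal of the group means, the 36 pairs of genes had a median Pearson r of 0.663 over the 20 libraries, from 0.293 for Ifit3 with Ube2l6 to 0.951 for Isg15 with Usp18. The points share libraries, and in pairs with Ifit3b low counts. Aged LPS culture 3 was the highest of its group for 9 of 9 genes, with a median deviation of 0.86 on the log2 CPM scale, and aged LPS culture 2 was the lowest for 9 of 9. Young untreated culture 1 was the highest of its group for 7 of 9, with a median deviation of 0.92. Among young LPS cultures, culture 2 was highest for 6 and culture 4 lowest for 8 of the 9.

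The summed level of the 13 microglial markers was lower in the aged groups, and it was high in some of the cultures that stood apart but not in others. Without LPS it was 3795 ± 531 CPM in the young and 3094 ± 487 CPM in the aged cultures, and 4407 ± 554 and 3565 ± 533 CPM under LPS. Aged LPS culture 3 had the highest sum of its group, 4499 CPM against 3161 to 3437 CPM in the other 4, and young untreated culture 1 the highest of its group, 4597 CPM against 3203 to 3887 CPM. In the aged untreated group culture 3 also had the highest marker sum, 3949 CPM, while its median deviation over the 9 genes was −0.10. Aged LPS culture 2, the lowest for all 9 genes, had the second highest sum of its group, 3437 CPM, and young LPS culture 2 had 4558 CPM against 5217 CPM in culture 1. Young LPS culture 4, the lowest for 8 genes, also had the lowest sum of its group, 3729 CPM against 4108 to 5217 CPM. Of the 13 markers, 4 were called lower in aged untreated cultures (7.81% of all genes). Under LPS 6 were called lower (15% of all genes) and 1, Tmem119, higher (1794 of 12799 genes). The part of these markers in the results was not tested.

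**Figure D5:**
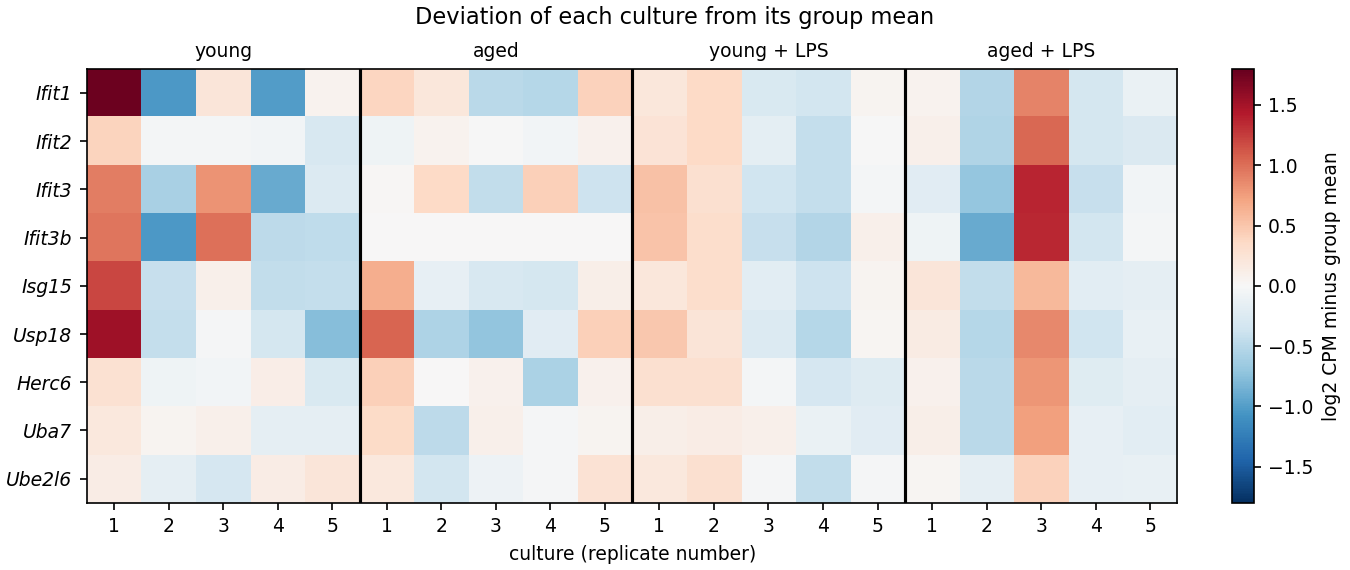
Deviation of each culture from the mean of its group for each of the 9 genes, as color in log2 CPM (rows are genes, columns cultures). Aged LPS culture 3 is above its group mean for all 9 genes (median 0.86), aged LPS culture 2 is below it for all 9, and young untreated culture 1 is above it for all 9 (median 0.92).

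The genes outside the 9 whose levels were most like their mean were Irgm2 (r = 0.997), Ifi211, Tdrd7, Parp10 and Parp14 (r = 0.996), out of 10875 genes over 20 libraries. After removal of the group means they were Parp14 (r = 0.938), Irgm2 (0.908), Ogfr (0.905), Mov10 (0.885) and Parp11 (0.878). Parp14 and Irgm2 stood in both lists. The first measure largely reflects the rise under LPS, and both share the libraries with the genes compared.

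The related genes Ifit1bl1 and Ifit1bl2 are listed as further Ifit genes. They were at 9 and 1 counts in all young untreated cultures together, and at 923 and 128 under LPS. In aged LPS cultures they had 231 and 61 counts, with log2 fold changes against young LPS of −2.16 ± 0.38 and −1.15 ± 0.28, both called lower by edgeR. Their transcripts share 91.6% of 2156 aligned bases with each other and 81.2% and 80.8% of the aligned bases with Ifit1, and how reads were divided among them was not tested.

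Partners of ISG15 outside the cascade behaved less uniformly. Of 7, LPS raised 5 and lowered 2 in young cultures, and aged LPS cultures had 3 lower and 1 higher. Of all 12799 genes tested, LPS raised 3988 and lowered 4282 in young cultures, and aged LPS cultures had 1923 lower and 1794 higher. Trim25, a ubiquitin and ISG15 ligase that activates RIG-I, stood at 590 ± 38.6 CPM in young and 423 ± 42 CPM in aged LPS cultures (log2 fold change −0.48, edgeR adjusted p = 8.19e-06). Cmtr1, which adds the cap methylation that Ifit1 senses, was lower by 0.35 and Itgal, a subunit of the receptor for free ISG15, by 0.98 on the log2 scale, and Skp2 was higher by 0.37. Itgal was also lower at rest (−0.93, edgeR adjusted p = 3.81e-05).

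The genes for ubiquitin and the enzymes that correspond to those of ISG15 are given beside them. Among 11 ubiquitin counterparts the log2 fold changes of aged against young LPS cultures ran from −0.39 to 0.05, with a median of −0.15. Of these, 4 were called lower and 0 higher, where 15% of all genes tested were called lower. Uba1, the activating enzyme of ubiquitin, had a level of 532 ± 14.3 CPM in the young and of 552 ± 17.8 CPM in aged LPS cultures. Ube2l3, the nearest relative of Ube2l6, had 206 ± 9.86 and 178 ± 2.89 CPM, a log2 fold change of −0.21 that was called lower. Between LPS and no treatment in young cultures, the counterparts ranged from −0.42 to 0.65, beside 2.72 to 7.28 for the 9 genes.

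Upstream of these genes, genes of type I interferon signalling were also compared between aged and young LPS cultures. Stat2 stood at 134 ± 24.9 CPM in young and 52.7 ± 24.3 CPM in aged LPS cultures (log2 fold change −1.34, edgeR adjusted p = 1.68e-05), and its LPS response was also smaller in aged cultures (−1.23, edgeR adjusted p = 0.0155). Irf9, its DNA-binding partner, differed by −0.41 and was called lower by edgeR. The receptor genes Ifnar1 and Ifnar2 were lower by 0.37 and 0.40, and the kinase genes Jak1 and Tyk2 by 0.11 and 0.54, on the log2 scale. The cytokine itself, Ifnb1, was too low to test, at 20 counts over the 5 young and 10 over the 5 aged LPS cultures and 0 counts in all untreated ones.

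On the way from TLR4 to interferon, 7 of 11 genes were called lower in aged LPS cultures and none higher, where 15% of all genes tested were called lower. Irf7, which amplifies interferon production, had a level of 206 ± 51.1 CPM in the young and of 92.9 ± 37.2 CPM in aged LPS cultures (−1.15, edgeR adjusted p = 0.00023), and was lower at rest too (−1.89, edgeR adjusted p = 0.0308). Irf1 was lower by 1.11, the kinase Tbk1 by 0.37 and the LPS co-receptor Cd14 by 0.64 on the log2 scale, while Tlr4 itself differed by 0.10 without passing (edgeR adjusted p = 0.502).

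Of 25 other interferon-stimulated genes, 24 were tested. All 24 were called higher under LPS in young (31.2% of all genes) and in aged cultures (27.5%). All 24 were also called lower in aged than in young LPS cultures (15% of all genes). At rest 10 of the 24 were called lower in aged cultures (7.81% of all genes), among them Rsad2 (−4.07), Oas2 (−1.16) and Parp14 (−1.47). The median rise under LPS was 6.57 on the log2 scale in young cultures, and resting counts are not given here. Some of the 24 may have passed the filter on low counts only through LPS cultures. Their counts of calls are therefore not read against the shares of all genes, and fold changes at rest may rest on few counts. Under LPS the double-stranded RNA sensor Ifih1 differed by −4.98 ± 0.28, Mx1 by −2.27 and Oas1a by −0.69, with a median of −1.37 over the 24 genes. In the difference of the LPS responses 1 of the 24, Oasl1, was called, at −0.74 (edgeR adjusted p = 0.0170), where 2.27% of all genes were called lower. The 9 genes and these 24 belong to the same known response, and no test set one group against the other.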

How the data were processed

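Poly(A) RNA libraries were made with a stranded Illumina kit. The authors aligned reads to GRCm38 with STAR 2.6.1d, counted them per Ensembl gene with featureCounts 1.5.1 (versions from the submitters' processing notes) and deposited whole-number counts without normalization. How featureCounts treated strand, reads with several alignments and overlapping genes is not given in the sources used here. Symbols, positions and exon lengths came from GENCODE M21, in which 55227 identifiers were found.

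Differences were tested by quasi-likelihood in edgeR 4.0.16 (R 4.3.3) over all 20 libraries with group as the only factor, TMM scaling and filterByExpr, with Benjamini-Hochberg adjustment over 12799 genes and a threshold of 0.05. SE values are from this fit. CPM values use TMM-scaled library sizes, and log2 CPM a prior count of 2. TPM values were computed over summed exon lengths. Floors cover counting error only. Mitochondrial genes held 0.517% to 1.30% of counts.

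Replicate numbers match the batch in the labels, and 1 culture of each group shares a batch. Across genes, departures from the group means correlated between untreated and LPS cultures of the same age and number in all 10 pairs (r = 0.122 to 0.394), and across the ages r ran from −0.214 to 0.275 over 20 pairs. Alternatives were DESeq2 1.42.0, the replicate block, other scalings, filters, thresholds and samples, and each library or replicate number left out. The test was tried on simulated counts first. All 9 genes are named by rule, others only from lists by function or as the 5 most alike in pattern, among genes whose mean log2 CPM was 1 or more. Genes, lists and tests were chosen with earlier results of these data known. Promoter windows came from RefSeq (GRCm38.p6). A listed signalling gene is not reported here.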

Additional observations from a re-analysis of the deposited data

Results flagged for a closer look

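The LPS response of Ifit2 differed between the ages by −1.30 on the log2 scale and that of Ube2l6 by −0.93, both smaller in aged cultures by the edgeR test of the difference itself. Ifit2 lost its call without young LPS culture 2 (edgeR adjusted p = 0.0522) and without replicate number 1, 2, 4 or 5 (edgeR adjusted p = 0.0644 to 0.195), and Ube2l6 kept its call with each library or replicate number left out.

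In 36 sets of 1 gene and 1 group, Dixon's test at the 95% level set a culture apart in 0 sets on the log2 CPM scale and in 6 on the CPM scale, which was added after seeing the data. Young untreated culture 1 stood apart for Ifit1 (4.83 CPM, ratio 0.766), Isg15 (3.79 CPM, ratio 0.787) and Usp18 (4.14 CPM, ratio 0.825). Aged LPS culture 3 stood apart for Ifit2 (332 CPM, ratio 0.722), Ifit3 (92.6 CPM, ratio 0.822) and Ifit3b (17.9 CPM, ratio 0.783). The ratio is the gap to the nearest culture over the range of the group, and chance flags about 1 set in 20.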

How the results depend on the processing

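Of 1448 values of the 9 genes under alternative settings, 1406 kept direction and side of the threshold, 15 lost the call, 23 gained it and 4 reversed. With libraries or replicate numbers left out, Ube2l6 at rest ran from −0.12 to 0.021 (log2), above 0 without aged untreated culture 2 (0.021) or young untreated culture 5 (0.0015). In the difference of the LPS responses the estimate for Ifit3, not read as a difference because its aged resting level was under the floor, ran from −0.21 (without replicate 3) to 1.43 and that for Usp18 from −0.033 (without young untreated culture 1) to 1.06. None of these 4 was called, and the cause was not tested. At rest, 2 genes were called in edgeR, 7 by DESeq2, 4 of the 6 that could be tested with only the groups compared, 1 at an adjusted p below 0.01, and 1 to 6 with a library or replicate number left out. Ifit1 lost its call without aged untreated culture 2, 3 or 4, young untreated culture 1, or replicate number 1, 4 or 5 (edgeR adjusted p = 0.0506 to 0.171). Its log2 fold change was −2.18 without young untreated culture 1 and −2.34 without replicate number 1. In the other fits of these it was −2.75 to −3.18, beside −2.94 with all cultures. With at least 10 counts in every library, 4 genes could be tested (Ifit2, Herc6, Uba7 and Ube2l6): edgeR called 0 at rest, with 2 at an unadjusted p below 0.05, and 4 in each LPS response and between aged and young LPS cultures. The difference of the responses had 1 call at an adjusted p below 0.01 and 1 to 4 with a library or replicate number left out. With the replicate block 3 genes were called at rest and 3 in the difference of the responses, through Uba7 and Herc6, and the block changed no other call of the 9 genes. The block also raised the lower calls among all 12799 genes, from 1000 to 1436 at rest and from 291 to 436 in the difference.

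Over all genes, the calls fell from 1475 to 622 at rest, from 3717 to 2333 between LPS cultures and from 818 to 328 in the difference at an adjusted p below 0.01. With libraries or replicate numbers left out they went down to 548, 2156 and 189, each without replicate 2. Library sizes alone shifted the median log2 fold change of all genes by −0.22 for LPS in young and −0.16 in aged cultures. Higher and lower calls were then 2407 and 6401 in place of 3988 and 4282 for LPS in young cultures, 2172 and 5476 in place of 3523 and 3445 for LPS in aged ones, 3167 and 1353 in place of 1794 and 1923 between LPS cultures, 632 and 866 in place of 475 and 1000 at rest, and 881 and 203 in place of 527 and 291 in the difference. No member changed its call under this scaling.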
